A study of Bos taurus with 43 samples.

Results

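In biceps brachii muscle of 43 cattle, 9 of 10 genes singled out for high signal both in the animals that the study called group B and in Holstein controls had a log2 signal 2.57 to 5.10 higher on the 27 arrays of these animals than on the other 16 arrays. The other gene, ASCC1, was high in the Holstein controls but low in all 4 suspected animals and in the other animals of group B. It was also high in some unknown animals outside group B. Apart from ASCC1, and from an overlap at ADGRA1, which animals had the high level coincided with the serial numbers of the slides on which the arrays lay. The genes were TMEM218, MOCS3, IMPA2, NRTN, BAIAP2L2, CHST10, PHF12, ADGRA1, ASCC1 and PHOX2A, each read through 1 chosen probe of the 21475 gene probes on the array. They were chosen on these signals, so that their differences between group B and group A and between Holstein and cross-breed controls are given as a description. Standard errors and calls from fits over all probes are printed for them as sizes only, not as tests of the members. The list has no numerical limit that a member had to pass.

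The study asked whether muscle expression profiles could tell illicitly treated cattle from untreated ones. The arrays were single-colour bovine oligonucleotide arrays, 1 per animal. The 4 suspected animals (S21, S54, S56 and S57) carry a label of suspected corticosteroid treatment and were positive in the study by histology and by mass spectrometry. The latter found low levels of the synthetic corticosteroid dexamethasone in the urine of these 4, in S56 below the limit of quantification. Dose and duration are unknown. The 21 unknown animals were commercial beef cattle sampled at slaughter whose treatment status is not known. The study gives its commercial animals, suspected and unknown, as all male and mostly Charolais, Limousine or a cross of these. They came from several batches, and the batch of each animal is not given, so that batch does not enter the fits. The negative controls were 5 male cross-breed bulls (K, Charolais and Limousine) and 13 male Holstein beef cattle (C), both from earlier controlled experiments. They differ in breed, and the study also gives them different ages and body weights. Rearing and origin may differ too. Ages were not analysed here. Each animal gave 1 sample of 1 muscle, so that the spread and the p-values given here are between animals, each with 1 array. Group A and group B are sets that the study drew from a principal component plot, not labels. The study's text places the cross-breed controls in group A, the suspected animals in group B and unknown animals in both, without counts or names. As taken here, group A held 16 arrays, those of the 5 cross-breed controls and 11 unknown animals. Group B held 14, those of the 4 suspected and 10 unknown animals.

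The 10 genes are not known as a pathway. MOCS3, IMPA2 and CHST10 are enzymes: MOCS3 loads sulfur onto the carrier proteins used for molybdenum cofactor and for thiolated tRNA, IMPA2 removes phosphate from inositol monophosphate, and CHST10 adds sulfate to the HNK-1 carbohydrate of neural cell surfaces. NRTN encodes neurturin, a ligand of the GDNF family that acts on neurons through a GFRA co-receptor and RET, and ADGRA1 is an adhesion G protein-coupled receptor. TMEM218 is a membrane protein of the transition zone at the base of cilia, and BAIAP2L2 bends the plasma membrane in epithelial and sensory cells. PHF12 is a zinc finger protein of the SIN3 histone deacetylase complex, PHOX2A is a homeodomain factor that specifies noradrenergic neurons, and ASCC1 is a subunit of the ASC-1 complex, which takes part in transcription and in repair of alkylated DNA.

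The slides carry serial numbers in the scanner file headers. The 19 slides fell into 2 runs of consecutive or nearly consecutive serial numbers, separated by a gap of 375, where the next largest gap was 3. Run 1 held 7 slides with all 5 cross-breed controls and 11 unknown animals. Run 2 held 12 slides with the 4 suspected animals, the other 10 unknown animals and all 13 Holstein controls. As the sets are taken here, run 1 is the same as group A, and run 2 the same as group B with the Holstein controls. The serial run of the slide and the groups behind the choice of these genes thus cannot be told apart. For the unknown animals, which the study's text does not name by group, the match rests on the sets as taken here. No scan day held arrays of both runs. Unknown animals of both runs, 11 in run 1 and 10 in run 2, were scanned on the same scanner and read with the same software version (9.5.1.1), while the cross-breed arrays were scanned on 2 other scanners with versions 9.1.3.1 (K7 and K8) and 9.5.3.1 (K10, K11 and K12). The share of spots well above background was 62.9% to 79.2% on arrays of run 1 and 40.2% to 97.3% on those of run 2. Spike-ins are control RNAs added to each sample. The log2 level of the 7 brightest of 10 was 11.33 to 12.95 (median 12.06) in run 1. In run 2 it was 7.75 to 13.40 (median 12.47). The 6 unknown animals of run 2 on slides without suspected animals had 7.75 to 12.22 (median 8.12). A link of this level to the members was not tested.

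Values below are normalized log2 signals of a probe, averaged over its 2 spots. A step of 1 is a 2-fold change. They compare the same probe between arrays, not the abundance of different genes. In such bulk muscle samples, a change in the number of cells of a type and a change of RNA per cell cannot be told apart. All 10 probes were well above background on all 43 arrays and saturated on none, and all 10 passed the filter on dim probes, which kept 16354 probes.

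Among the enzymes, MOCS3 had the largest difference between the runs of all 16354 probes, 5.10 on the log2 scale. The MOCS3 signal was 15.23 in S21, 14.85 in S54, 14.79 in S56 and 14.56 in S57. It was 10.72 in K8, 10.46 in K7, 11.01 in K11, 9.42 in K12 and 8.94 in K10, so that every suspected animal lay above every cross-breed control. The 13 Holstein controls ran from 14.36 to 15.33 with a median of 14.70. Unknown animals lay at 8.49 to 10.75 (median 9.31) in run 1 and at 14.01 to 15.07 (median 14.64) in run 2, with no value between.

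IMPA2 showed the same order at a smaller difference. Its signal was 15.11, 14.95, 14.78 and 14.64 in S21, S54, S56 and S57. The cross-breed controls had 11.53 (K8), 11.18 (K7), 11.82 (K11), 10.40 (K12) and 10.03 (K10). Holstein controls ranged from 14.47 to 15.25 (median 14.71), beside a median of 14.87 in the suspected animals. The unknown animals of run 1 had 9.64 to 10.99 and those of run 2 had 13.97 to 15.09.

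CHST10 differed by 3.18 between the runs. The suspected animals had 16.19 (S21), 15.74 (S54), 16.02 (S56) and 15.70 (S57). The cross-breed controls had 12.54 (K7), 13.03 (K8), 12.13 (K10), 12.80 (K11) and 12.13 (K12). Holstein values were tight, from 15.32 to 15.85 with an SD of 0.17. Unknown animals of run 1 reached 13.75, and the lowest unknown animal of run 2 had 14.85.

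Of the genes of the cell surface and of signalling, the ligand NRTN had 12.84, 12.47, 12.17 and 12.24 in S21, S54, S56 and S57. In the cross-breed controls its signal was 8.63 (K7), 8.69 (K8), 7.27 (K10), 8.70 (K11) and 8.09 (K12). Holstein controls ran from 12.11 to 13.51 (median 12.53), above every array of run 1. The unknown animals had 7.26 to 9.20 in run 1 and 11.42 to 12.95 in run 2.

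TMEM218 had the widest empty interval between the runs, 3.02 on the log2 scale, the lowest array of run 2 set against the highest of run 1. Its signal was 13.85 in S21, 13.50 in S54, 13.37 in S56 and 13.25 in S57. In the cross-breed controls it was 9.43 (K7), 9.57 (K8), 8.14 (K10), 9.27 (K11) and 8.20 (K12). The Holstein controls had 12.64 to 13.77 (median 13.03). Unknown animals had 7.32 to 8.63 in run 1, with a median of 7.76 that was lower than that of the cross-breed controls (9.27), and 12.59 to 13.70 in run 2.

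BAIAP2L2 had a mean of 6.35 ± 0.85 (SD, n = 16) in run 1 against 11.41 ± 0.45 (SD, n = 27) in run 2, a difference of 5.07 that was 3.68 with normexp background correction. The suspected animals had 12.19 (S21), 11.81 (S54), 11.56 (S56) and 11.59 (S57). The cross-breed controls had 7.24 (K7), 7.44 (K8), 6.05 (K10), 7.17 (K11) and 6.62 (K12). Holstein controls had 10.83 to 12.09 (median 11.31), and the unknown animals 4.92 to 7.47 in run 1 and 10.35 to 11.97 in run 2.

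For the receptor ADGRA1 the runs overlapped. S54, S56 and S57 had 11.30, 11.40 and 11.39, but S21 had 9.80, which is below the 9.82 of the unknown animal 58 of run 1. The 2 spots of ADGRA1 disagreed on the array of S21 alone by more than 1, with 7.87 and 11.72, and neither was marked as an outlier by the software. The cross-breed controls had 7.67 (K7), 7.69 (K8), 6.29 (K10), 7.68 (K11) and 6.98 (K12), and the Holstein controls 10.80 to 11.96 (median 11.21). Unknown animals ran from 6.38 to 9.82 in run 1 and from 9.87 to 11.85 in run 2.

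Of the nuclear proteins, PHF12 differed by 4.25 between the runs. The suspected animals had 16.92 (S21), 16.52 (S54), 17.004 (S56) and 16.65 (S57). The cross-breed controls had 12.18 (K7), 12.36 (K8), 10.20 (K10), 12.52 (K11) and 10.84 (K12), a range of over 2 log2 units. Holstein controls stood together at 16.31 to 16.84 (median 16.54). Unknown animals had 11.58 to 14.69 in run 1 and 15.60 to 17.20 in run 2.

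PHOX2A had the smallest difference of these 9 probes, 2.57. Its signal was 15.59, 15.40, 15.55 and 15.22 in S21, S54, S56 and S57. The cross-breed controls had 12.86 (K7), 13.02 (K8), 11.90 (K10), 13.38 (K11) and 12.46 (K12). Holstein controls had 15.65 to 16.31 (median 15.83), so that all 13 lay above all 4 suspected animals. The unknown animals had 12.39 to 13.86 in run 1 and 14.64 to 15.92 in run 2.

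ASCC1 went against the description under which it was chosen. The suspected animals had 8.25 (S21), 10.05 (S54), 9.28 (S56) and 10.07 (S57), and the 10 unknown animals of run 2 had 9.53 to 10.77. These overlapped the cross-breed controls, which had 10.18 (K7), 10.04 (K8), 9.67 (K10), 9.49 (K11) and 10.08 (K12). Only the Holstein controls of run 2 were high, from 12.78 to 14.16 with a median of 13.59. In run 1, the unknown animals 263, 265, 266, 269 and 270 had 12.92, 13.93, 13.27, 13.61 and 13.66, within the Holstein range, while 36, 37, 38, 49, 51 and 58 had 10.54, 10.31, 9.42, 9.63, 10.02 and 11.41. Slide 6 held animals of both levels (269 at 13.61, 36 at 10.54 and 58 at 11.41). The animals of slide 5 (37, 38, 49 and 51) were all low and those of slide 7 (263, 265, 266 and 270) all high. A link of this level to the slide was not tested. On the array of S21 the 2 spots of ASCC1 read 6.49 and 10.02, so that the low mean of this animal rests on 1 spot.

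**Figure D1:**
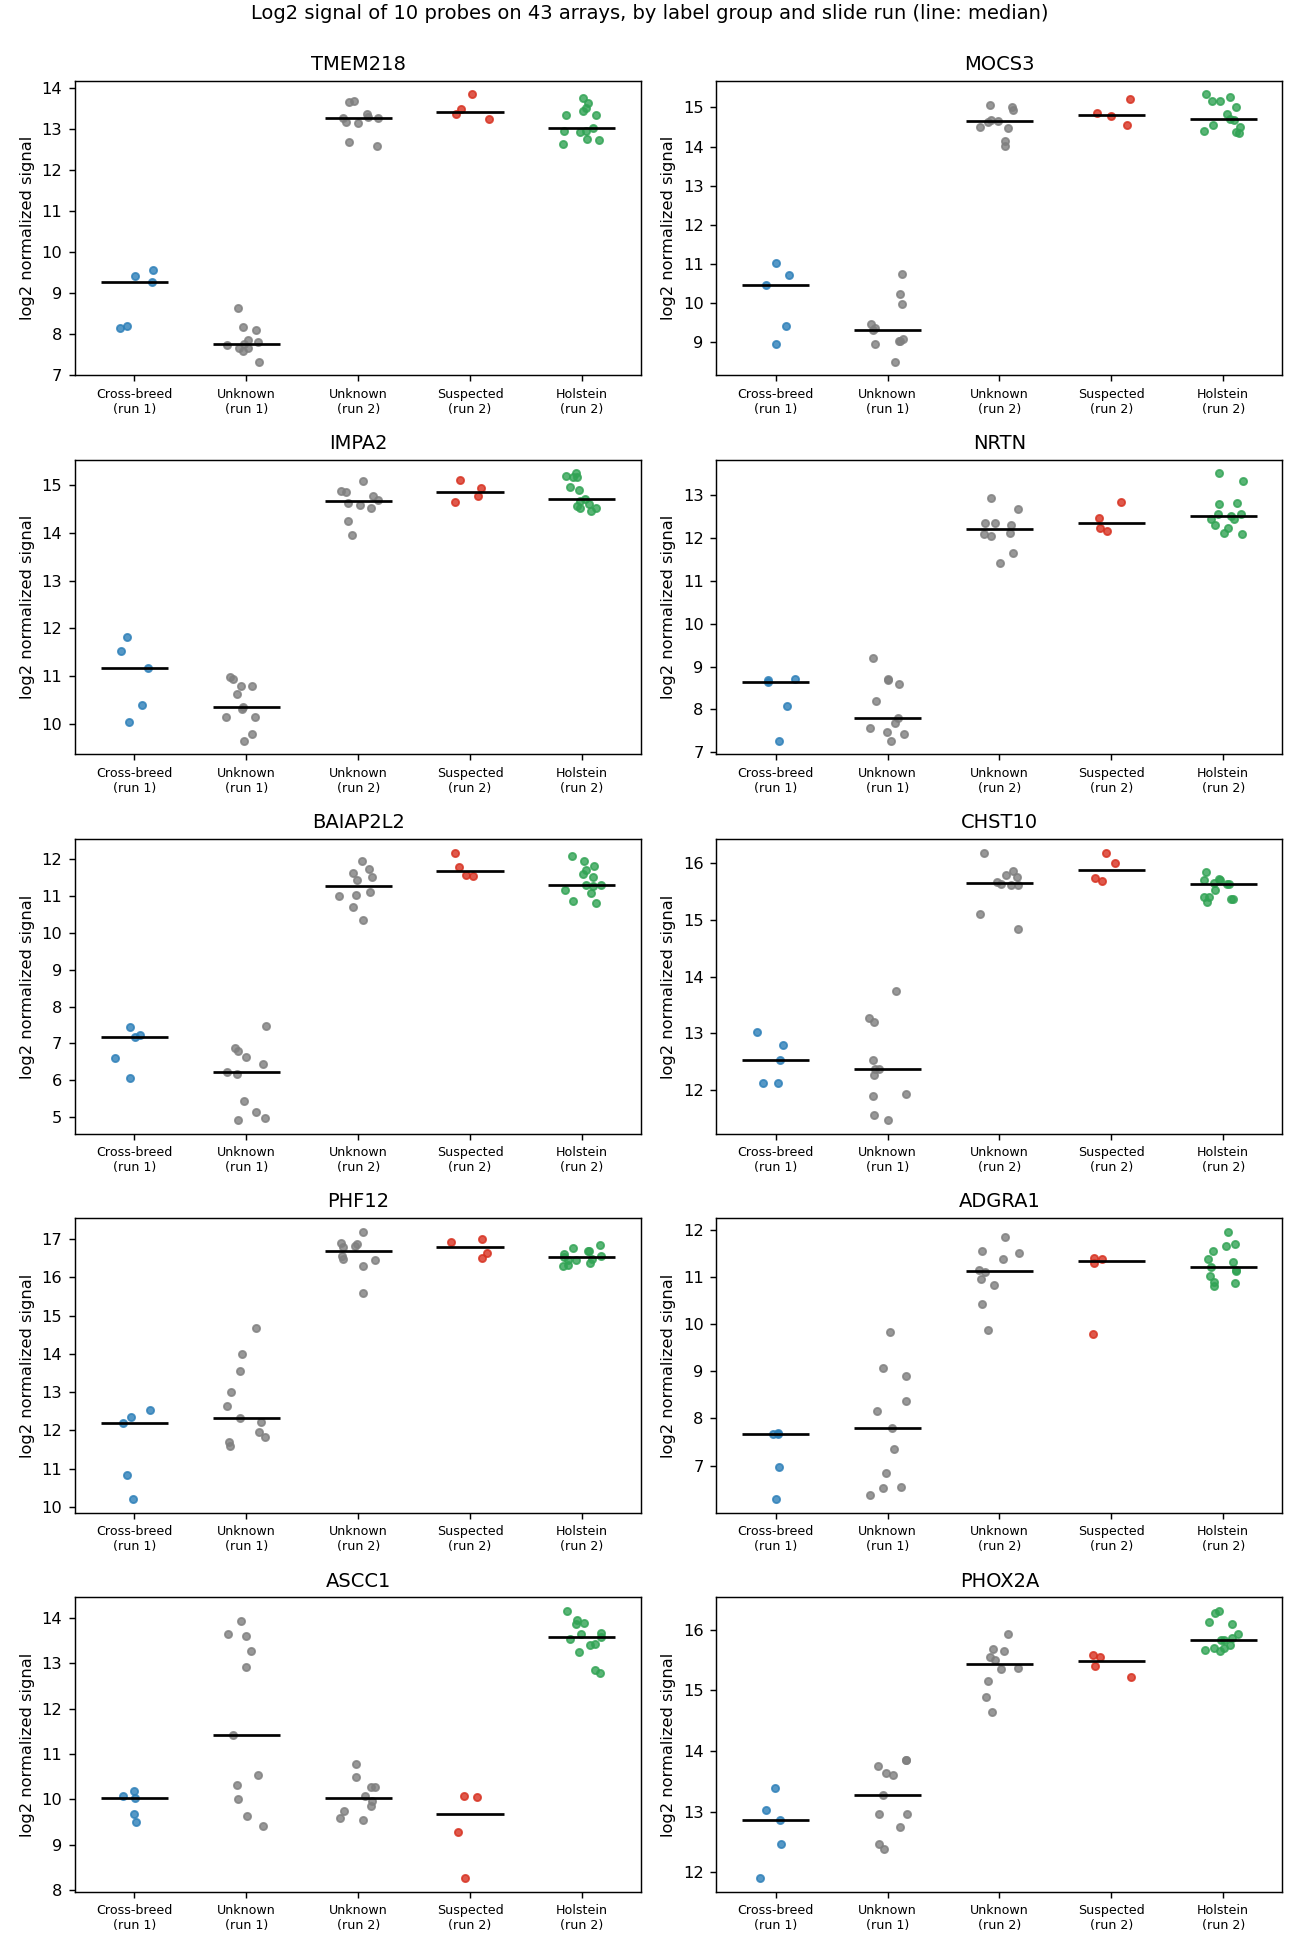
Normalized log2 signal (vertical axis) of the 10 probes on 43 arrays, by label group with the unknown animals split by slide run (horizontal axis); points are animals and lines are medians of 5, 11, 10, 4 and 13 animals. In every panel but those of ASCC1 and ADGRA1, all arrays of run 2 sit above all arrays of run 1, and at ASCC1 the Holstein controls (12.78 to 14.16) and 5 unknown animals of run 1 are high.

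With limma fits over 16354 probes, the level in the suspected animals minus that in the cross-breed controls was 4.88 ± 0.28 (SE) for BAIAP2L2, 5.15 ± 0.45 for PHF12, 4.74 ± 0.40 for MOCS3, 4.57 ± 0.32 for TMEM218 and 4.15 ± 0.30 for NRTN. It was 3.88 ± 0.34 for IMPA2, 3.71 ± 0.40 for ADGRA1, 3.38 ± 0.22 for CHST10, 2.72 ± 0.27 for PHOX2A and -0.48 ± 0.35 for ASCC1. With a call set at 2-fold or more and an adjusted p below 0.05, 9 of the 10 probes were called higher, where 14.4% of all probes were called higher and 28.1% in either direction. The Holstein controls minus the same 5 cross-breed controls gave 4.93 ± 0.27 for PHF12, 4.68 ± 0.27 for MOCS3, 4.52 ± 0.23 for BAIAP2L2, 4.32 ± 0.25 for NRTN, 4.24 ± 0.24 for TMEM218, 4.02 ± 0.22 for ADGRA1, 3.83 ± 0.23 for IMPA2, 3.65 ± 0.20 for ASCC1, 3.18 ± 0.18 for PHOX2A and 3.04 ± 0.14 for CHST10. All 10 were called there, where 10.9% of all probes were called higher and 20.6% in either direction. Both counts rest on the signals by which the genes were chosen, so that they test nothing and are not read further. Both comparisons share the cross-breed controls.

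Suspected animals and Holstein controls, which lay on different slides of run 2, were close at 9 of the 10 probes. The difference, suspected minus Holstein, was 0.06 for MOCS3 (95% interval -0.35 to 0.47), 0.05 for IMPA2 (-0.30 to 0.40), -0.17 for NRTN (-0.65 to 0.31) and 0.23 for PHF12 (-0.03 to 0.48). For TMEM218 it was 0.33 (-0.09 to 0.75), for BAIAP2L2 0.36 (-0.09 to 0.81) and for ADGRA1 -0.31 (-0.86 to 0.24). CHST10 was higher by 0.34 (0.09 to 0.60) and PHOX2A differed by -0.46 (-0.75 to -0.17), both under 2-fold. ASCC1 differed by -4.12 (-4.74 to -3.51) and was the only 1 of the 10 called, where 17.8% of all probes were called in either direction and 8.4% were called higher. The choice of genes high in both sets bears on these values, and they are a description.

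The suspected animals shared 2 slides with 4 unknown animals, 50 and 81 beside S56 and S57 and 78 and 79 beside S21 and S54. This contrast lies within group B and was not used to choose the genes. Among all arrays, that of animal 79 had the lowest share of spots well above background (40.2%) and that of animal 50 the highest (97.3%). At every member but ASCC1, animal 79 was the lowest of these 4 unknown animals, so that its array adds to the differences given below. No probe was called in it by limma with the slide as a block (0% of 16354 called, and 1873 with an unadjusted p under 0.05). The difference, suspected minus unknown, was the largest increase among the members for BAIAP2L2, at 0.71 (95% interval 0.21 to 1.21, limma adjusted p = 0.309). BAIAP2L2 had 11.12 in animal 50, 11.03 in 78, 10.71 in 79 and 11.43 in 81, all below the 4 suspected animals. NRTN had 12.13, 12.05, 11.66 and 12.11 in the same 4 unknown animals, also below all 4 suspected animals, with a difference of 0.44 (-0.02 to 0.91, limma adjusted p = 0.458). These were the 2 of 10 members whose groups did not overlap, all suspected animals being higher, where 2.8% of all probes had this pattern. For TMEM218 the difference was 0.39 (-0.13 to 0.91, limma adjusted p = 0.554), for IMPA2 0.30 (-0.13 to 0.73), for MOCS3 0.29 (-0.24 to 0.82), for CHST10 0.24 (-0.32 to 0.81), for PHOX2A 0.17 (-0.28 to 0.63) and for PHF12 0.15 (-0.35 to 0.65). The intervals of these 6 genes exclude a 2-fold increase in the suspected animals. For ADGRA1 (-0.05, interval -0.83 to 0.74) and ASCC1 (-0.75, interval -1.81 to 0.31) the spots of S21 described above enter the mean, and without S21 the differences were 0.26 and -0.24.

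**Figure D2:**
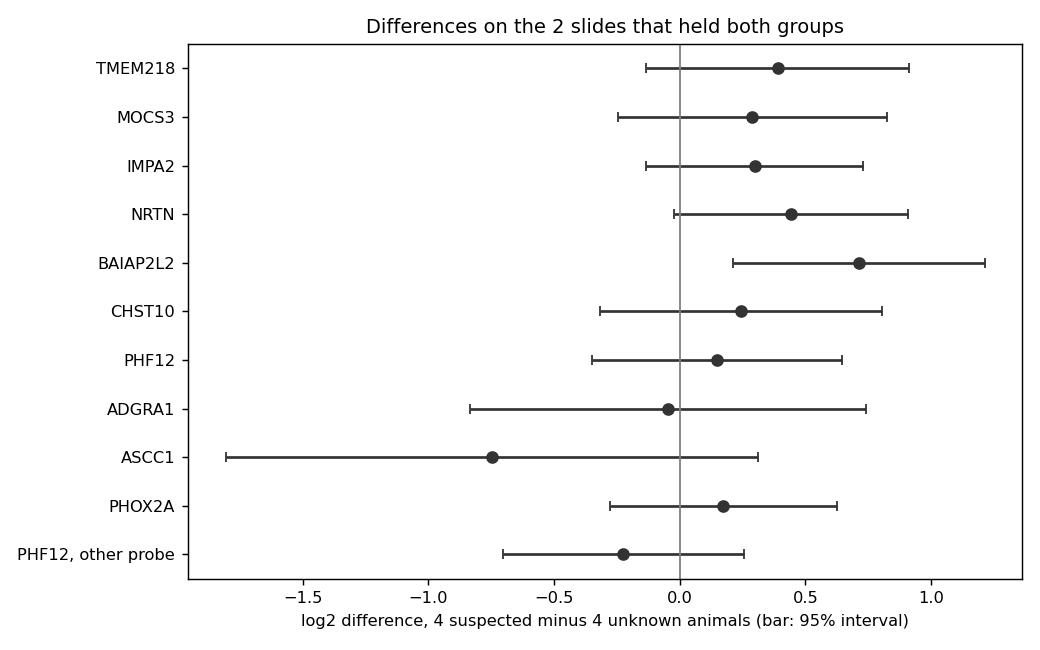
Difference of log2 signal, 4 suspected minus 4 unknown animals on the 2 slides that held both (horizontal axis, points), with 95% intervals (bars), for the 10 probes and the other PHF12 probe (vertical axis). Only the interval of BAIAP2L2 (0.21 to 1.21) leaves out 0, and no adjusted p passed 0.05.

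Across all probes, 204 of 16354 (1.25%) had every array of run 2 above every array of run 1, and 85 had every array of run 2 below. Of the 10 members 8 had this pattern, all but ADGRA1 and ASCC1. The genes were chosen on the same split of the arrays, so that this count, the ranks and the empty intervals below test nothing. The median difference between the runs over all probes was -0.03, and the middle 90% of probes lay between -1.14 and 1.57. In the order of that difference MOCS3 was number 1, BAIAP2L2 number 2, TMEM218 number 4, NRTN number 8, PHF12 number 9, IMPA2 number 10, ADGRA1 number 31, CHST10 number 49, PHOX2A number 149 and ASCC1 number 3971. Between the lowest array of run 2 and the highest of run 1, the empty interval was 3.02 for TMEM218, 2.99 for MOCS3, 2.88 for BAIAP2L2, 2.22 for NRTN, 2.15 for IMPA2, 1.09 for CHST10, 0.91 for PHF12 and 0.78 for PHOX2A. Of the 196 other probes with the pattern, those named for a gene with the widest intervals were C14H8orf34 (2.49) and METTL2A (1.78), a tRNA methyltransferase.

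**Figure D3:**
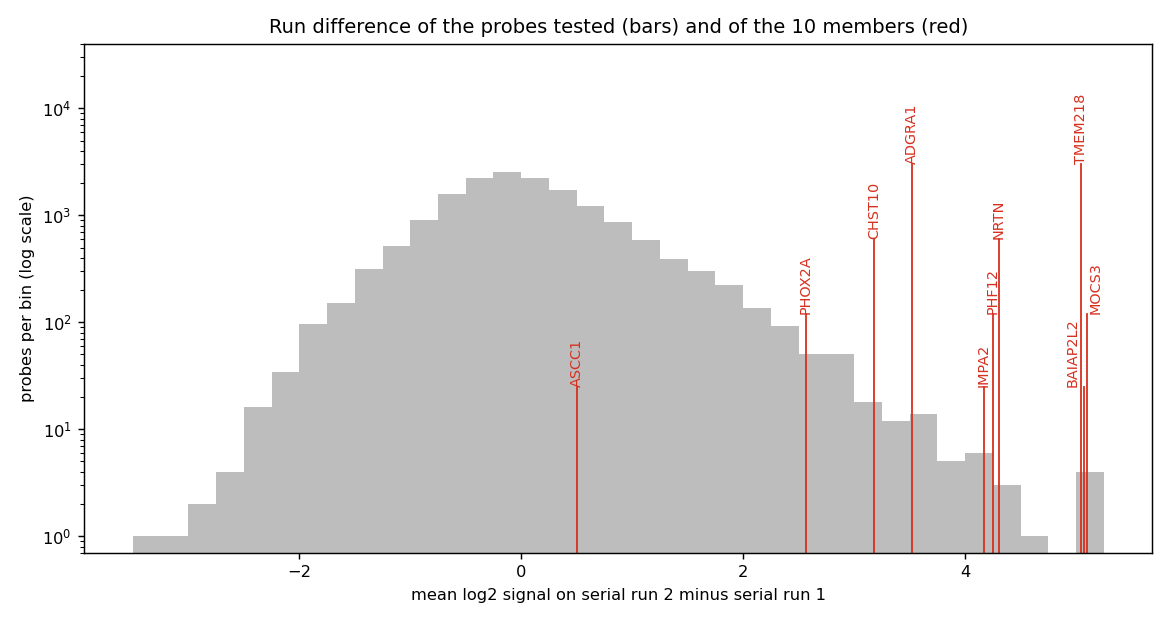
Mean log2 signal in run 2 minus run 1 (horizontal axis) for 16354 probes, as the number of probes per bin (vertical axis, log scale), with the 10 members as red lines. MOCS3, BAIAP2L2 and TMEM218 lie at the right end (5.05 to 5.10), PHOX2A at 2.57 and ASCC1 at 0.50.

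Within a run, the slide means of each of the 9 genes other than ASCC1 spanned less than the difference between the runs. Over single animals of run 1 this did not hold for PHF12, which ran from 10.20 to 14.69, or for ADGRA1, which ran from 6.29 to 9.82. The slide means of TMEM218 ran from 7.63 to 9.50 over the 7 slides of run 1 and from 12.64 to 13.49 over the 12 slides of run 2. For MOCS3 they ran from 8.88 to 11.01 and from 14.36 to 15.18. Animals of the same slide differed by a median of 0.33 at TMEM218 in run 1 and 0.34 in run 2, and by at most 1.26, on slide 10. The SD over arrays was larger in run 1 than in run 2 for all 9 genes, for example 1.11 against 0.30 for PHF12 and 0.77 against 0.35 for MOCS3. By software version, MOCS3 had 10.46 and 10.72 on the 2 arrays of version 9.1.3.1, 8.94 to 11.01 on the 3 arrays of version 9.5.3.1 and 8.49 to 10.75 on the 11 arrays of run 1 read with version 9.5.1.1, so that all 3 versions gave low values in run 1. The 27 arrays of run 2, all of version 9.5.1.1, had 14.01 to 15.33.

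The 9 genes also tended to be high or low on the same arrays within a run. The median Pearson r over their 36 pairs was 0.64 over the 16 arrays of run 1 (lowest 0.06, highest 0.92) and 0.64 over the 27 arrays of run 2 (lowest 0.35, highest 0.96), a description of probes that share arrays and normalization. Their mean log2 signal was lowest in animal 38 (8.95) and highest in animal 58 (10.76) in run 1, and lowest in animal 52 (13.04) and highest in C41 (14.49) in run 2. The 2 spots of a probe, printed at different places, differed by a median of 0.05 (CHST10) to 0.15 (BAIAP2L2). Larger gaps occurred at PHOX2A in run 1, where the spots read 12.67 and 14.54 in animal 270. They read 13.19 and 14.33 in animal 263, and 13.33 and 14.37 in animal 269.

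**Figure D4:**
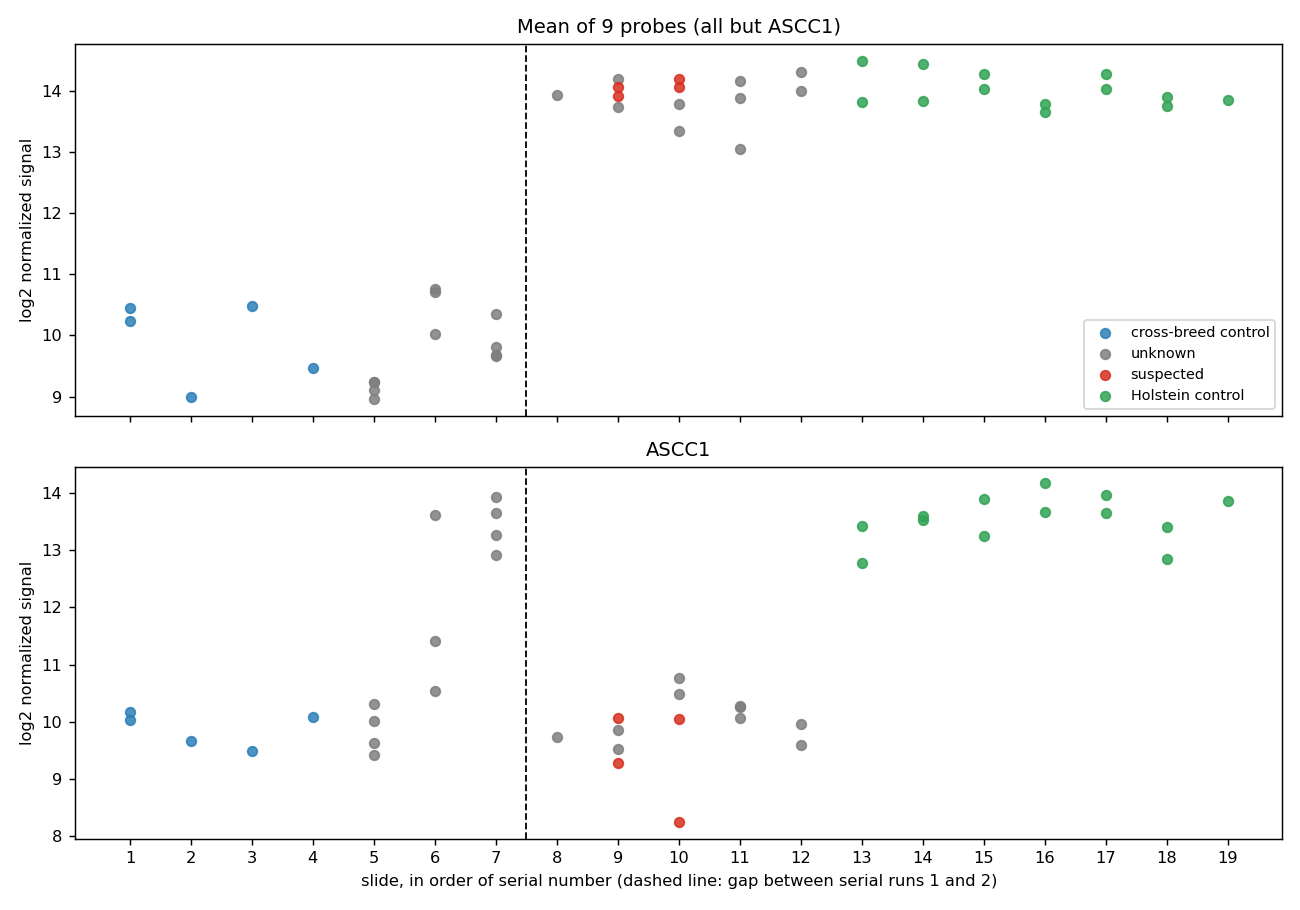
Log2 signal (vertical axis) of each array against its slide in order of serial number (horizontal axis, 1 to 19), for the mean of the 9 probes other than ASCC1 (upper panel) and for ASCC1 (lower panel), coloured by label group; the dashed line marks the gap between the runs. The mean of 9 probes stays at or below 10.76 on slides 1 to 7 and at or above 13.04 on slides 8 to 19, while ASCC1 is high on slides 13 to 19, on slide 7 and in 1 animal of slide 6.

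PHF12 is the only gene of the 10 with another probe on the array, designed to another transcript variant. This probe was dimmer, well above background on 25 of 43 arrays, and its groups overlapped. Its signal was 5.13 (S21), 5.01 (S54), 4.96 (S56) and 5.19 (S57) in the suspected animals and 5.16 (K7), 4.801 (K8), 4.39 (K10), 5.04 (K11) and 4.44 (K12) in the cross-breed controls. The difference was 0.31 (95% interval -0.11 to 0.72, limma adjusted p = 0.198), where the member probe differed by 5.15. It depended on the normalization, with -2.13 under cyclic loess on every pair of arrays (limma adjusted p = 3.53e-04), -0.11 without normalization and 1.08 under 75th percentile scaling (limma adjusted p = 0.0141). The Holstein controls minus the cross-breed controls gave -0.13 (-0.43 to 0.16, limma adjusted p = 0.444; -1.46 without normalization, adjusted p = 0.0011), and the suspected animals minus the Holstein controls 0.44 (0.18 to 0.70, limma adjusted p = 0.0112). The latter was 1.62 under 75th percentile scaling (limma adjusted p = 6.89e-07), 1.35 without normalization (adjusted p = 0.00351) and -2.14 under cyclic loess on every pair of arrays (adjusted p = 1.56e-07), so that no direction is given for it. Between the runs the other probe differed by -0.17 and the member probe by 4.25.

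Of the 144 separating probes named for a gene, those of 14 genes, PHF12 among them, had further tested probes on the array, 21 in all. Of these 21, 0 separated the runs, where 1.25% of all probes did, so that the count says nothing particular about them. Their median difference between the runs was 0.44, beside -0.03 over all probes. For APBA3, an adaptor protein, the separating probe differed by 3.71 and the other probe by 1.22, and for KMT2A, a histone methyltransferase with 6 other probes, by 2.65 against -0.69 to 1.49. YRDC, a tRNA modification enzyme, came closest, with 1.06 and 0.84. What in the probe or transcript sets these pairs apart was not tested.

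**Figure D5:**
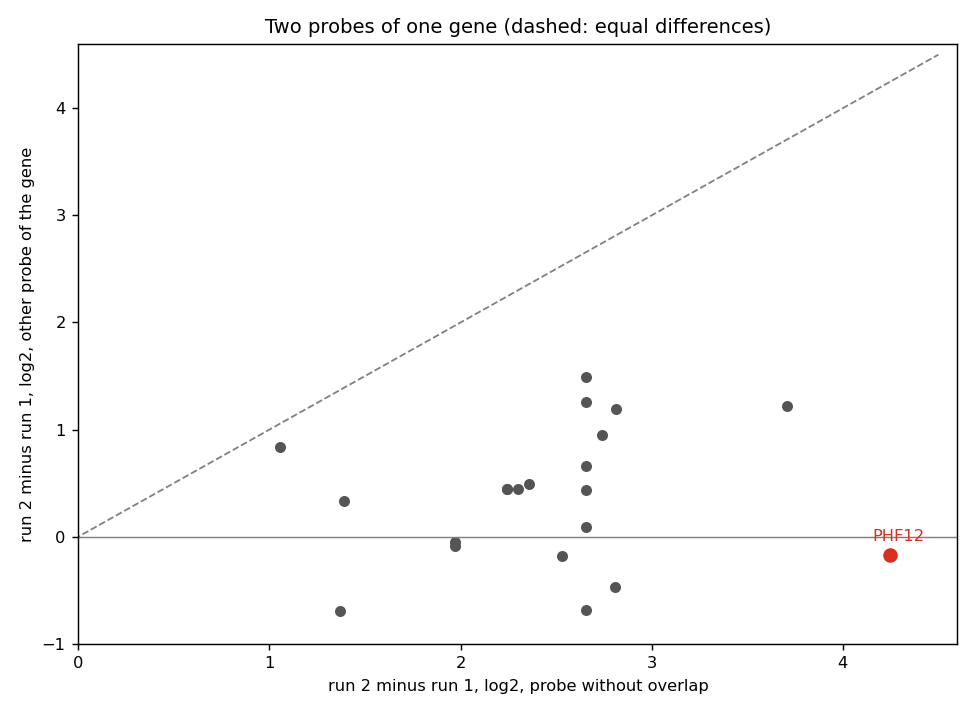
For 14 genes with a probe that separates the runs, its log2 difference between run 2 and run 1 (horizontal axis) against that of each other probe of the gene (vertical axis), 21 points; the dashed line marks equal differences and PHF12 is in red. The probes on the horizontal axis were picked for their separation and the others were not, so that a place below the line is not read as a result. What sets the pairs apart was not tested. The other probes range from -0.69 to 1.49, and at PHF12 the values are 4.25 and -0.17.

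Over the 43 arrays, the gene-named probes most like the mean of the 10 members, by Pearson's r, were those of DENND1A (r = 0.99), CHCHD6 (0.99), CLASRP (0.98), SPTBN4 (0.98), RUVBL2 (0.98), ZMAT5 (0.98), GPR37L1 (0.98) and CACNA1B (0.98). They encode, in this order, an activator of a RAB protein, a mitochondrial cristae protein, a splicing regulator, an axonal spectrin, a helicase-like ATPase, a protein of the minor spliceosome, a glial receptor and a neuronal calcium channel. All 8 separated the runs without overlap. DENND1A ran from 8.65 to 10.76 in run 1 and from 11.70 to 14.44 in run 2, and also followed the members within each run (r = 0.94 in run 1 and 0.95 in run 2). SPTBN4 ran from 7.10 to 8.74 and from 9.87 to 11.57. GPR37L1 ran from 11.85 to 14.59 and from 16.20 to 17.09. The most opposed probes were those of RBP3 (r = -0.94), NSFL1C (-0.93), MAP3K7 (-0.92) and BANF1 (-0.92), which fell by 1.03, 0.66, 1.31 and 1.21 from run 1 to run 2. Since the arrays fall into separate sets, these r over 43 arrays mostly give the step between the runs. Within the runs, the 8 probes most like the members had r of 0.62 to 0.94 in run 1 and 0.71 to 0.95 in run 2. The 4 most opposed had -0.85 to -0.23 in run 1 and -0.54 to 0.15 in run 2. These too are a description of probes that share arrays and normalization.

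ASCC1 had other neighbours. The probe most like it over 43 arrays was that of UCP3, a mitochondrial carrier of muscle (r = 0.91), followed by DDX39A (0.89), NUP35 (0.88), ABAT (0.87) and FAM131A (0.87), a list drawn up after the values of ASCC1 were seen. UCP3 had 12.33 to 14.54 in the Holstein controls, 8.61 to 10.19 in the suspected animals, 9.20 to 11.02 in the cross-breed controls, 7.78 to 14.54 in the unknown animals of run 1 and 8.04 to 10.85 in those of run 2.

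Genes that work with the members were described from lists of 9 to 18 genes each. Of their 92 tested probes, 1 of which (RET) stands in 2 lists, 1 separated the runs upward and 3 downward, where 204 and 85 of all 16354 probes did. The share of called probes over the whole array given above, 28.1% for suspected against cross-breed and 20.6% for Holstein against cross-breed, is the background of the counts below, and the serial run of the slides cannot be told apart from either comparison. No probe of these lists was called between suspected and unknown animals on shared slides.

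For MOCS3, 4 of 15 tested probes of molybdenum cofactor and tRNA thiolation genes were higher and 0 lower in suspected than in cross-breed animals, and 0 higher and 2 lower in Holstein controls. MTARC2, a molybdenum enzyme of mitochondria, rose by 1.55 in the suspected animals (limma adjusted p = 8.34e-04), and URM1, a sulfur carrier that MOCS3 loads, by 1.47 (adjusted p = 9.79e-04). SUOX, sulfite oxidase, was at 9.59 to 10.55 in run 1 and 8.36 to 9.51 in run 2, without overlap, and fell by 1.27 in the Holstein controls (limma adjusted p = 5.53e-06). MOCS1, an enzyme of the first step of cofactor synthesis, fell by 1.25 there (adjusted p = 8.59e-04). For IMPA2, 2 of 11 tested probes of inositol phosphate genes were higher in the suspected animals, those of ISYNA1, which makes inositol phosphate (1.17), and SLC5A3, an inositol transporter, which was at least 1.40-fold higher, since it was not well above background in any cross-breed control. Such a bound sets the mean of the brighter group against the lowest signal well above background on the arrays of the dimmer group. Where the bound is under 2-fold, the call rests on a fitted value that includes signals not well above background. SLC5A3 was at least 2.73-fold higher in the Holstein controls. For CHST10, 2 of 8 tested probes of HNK-1 and sulfotransferase genes were higher in the suspected animals, B3GAT1, which adds the glucuronic acid that CHST10 sulfates, by 1.53 (limma adjusted p = 4.45e-05), and CHST2 by 1.17. In the Holstein controls only CHST12 was called, higher by 1.22. CHST11 was higher in suspected than in Holstein animals, at least 1.11-fold.

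For NRTN, 2 of 6 tested probes of the GDNF family were lower in the suspected animals and 0 higher. RET, the receptor kinase of the family, fell by 1.81 (limma adjusted p = 0.00204). In the Holstein controls RET differed by 0.48 (limma adjusted p = 0.0729). Suspected minus Holstein animals gave -2.30 for it (limma adjusted p = 3.65e-07). GFRA3, a co-receptor, was at 6.17 to 8.51 in run 1 and 4.74 to 6.05 in run 2, and fell by 1.31 in the suspected animals and by 1.57 in the Holstein controls. GFRA2, the co-receptor of neurturin, was at 4.68 to 7.26 and 5.997 to 8.11, with a difference of 0.60 in the suspected animals (limma adjusted p = 0.142). For ADGRA1, 3 of 8 tested probes of adhesion receptors were higher and 0 lower in each comparison with the cross-breed controls. ADGRG1 rose by 1.75 in the suspected animals and 1.64 in the Holstein controls, and ADGRF5, a receptor of endothelium, by 1.70 and 1.07. ADGRB1, well above background in 3 of 5 cross-breed controls, rose by 2.31 in the suspected animals, and ADGRB2 was at least 1.61-fold higher in the Holstein controls.

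For TMEM218, 4 of 12 tested probes of the cilium transition zone were lower in the suspected animals and 0 higher. At each of these 4 probes at most 1 of the 4 suspected animals was well above background. RPGRIP1L was at least 1.63-fold lower there. TCTN1 was well above background in 1 of 4 suspected and 3 of 5 cross-breed animals, and no size is given for it. B9D2 rose by 1.21 in the Holstein controls. For BAIAP2L2, 3 of 7 tested probes of membrane-bending and filopodia genes were higher and 1 lower in the suspected animals. BAIAP2, the founding gene of its family, was at 8.04 to 9.46 in run 1 and 9.53 to 11.07 in run 2, without overlap, and rose by 1.82 in the suspected animals (limma adjusted p = 1.89e-04) and by 1.03 in the Holstein controls. MTSS2 (1.87) and EPS8 (1.29) rose and CDC42, a small GTPase, fell by 1.06 at 1 probe in the suspected animals, while its other probe differed by -0.18.

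For PHF12, 1 of 10 tested probes of SIN3 complex genes was lower in the suspected animals, TLE1, a co-repressor, by 1.03. TLE1 fell by 1.30 and SIN3A, the scaffold of the complex, by 1.34 in the Holstein controls. For ASCC1, 1 of 7 tested probes was lower in each comparison, that of MGMT, an alkylation repair enzyme, which fell by 1.68 in the suspected animals and fell by 1.102 in the Holstein controls. TRIP4, another subunit of the ASC-1 complex, was the third list gene lower in run 2 without overlap, and differed by -0.62 and -0.47, under 2-fold. For PHOX2A, 3 of 8 tested probes of noradrenergic genes were higher and 2 lower in the suspected animals, and 2 higher and 0 lower in the Holstein controls. TH, the first enzyme of catecholamine synthesis, was at 12.21 to 14.17 in run 1 and 12.47 to 14.30 in run 2, and fell by 1.02 in the suspected animals. DBH, which makes noradrenaline, was at least 3.47-fold higher in the suspected animals, and SLC18A2, the vesicle transporter, at least 1.98-fold higher in the suspected animals and at least 1.497-fold in the Holstein controls. CHRNA3, a ganglionic receptor subunit, was called higher in the Holstein controls at 1 probe. This probe was well above background in 2 of 5 cross-breed controls, and no size is given for it. The other CHRNA3 probe differed by -0.01.

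Markers of cell types were read beside these values. All 10 tested probes of skeletal muscle markers were well above background on all 43 arrays, with MB, myoglobin, the brightest. ACTA1, skeletal actin, separated the runs, with 15.40 to 16.72 in run 1 and 17.19 to 18.21 in run 2, and rose by 1.41 in the suspected animals and 1.14 in the Holstein controls. It was the only muscle probe called higher, and 3 were called lower in each comparison. TNNT3, fast troponin T, fell by 2.72 in the suspected animals and fell by 1.47 in the Holstein controls. A probe of TTN, titin, fell by 1.46 in the suspected animals and fell by 2.60 in the Holstein controls, while its other probe differed by 0.99 and 0.69. MYF6, a myogenic factor, fell by 1.49 in the suspected animals, and MYOG, myogenin, fell by 1.46 in the Holstein controls. Of the 4 tested sympathetic neuron probes 0 separated the runs, 1 was called higher (DBH) and 2 lower (TH and UCHL1) in the suspected animals, and 1 lower (UCHL1) in the Holstein controls. UCHL1, a neuronal deubiquitinase, fell by 3.03 and fell by 2.34 in these comparisons, and the summed signal of the list was 12.31 to 14.20 in run 1 and 12.49 to 14.47 in run 2. In that list, SLC6A2 and ELAVL4 were each well above background on 1 array only. Of the 4 tested Schwann cell probes S100B was called in the suspected animals, higher by 2.48, and the summed signal was 12.07 to 13.52 in run 1 and 11.87 to 13.90 in run 2. For epithelial markers, the summed signal of 5 probes was 8.58 to 10.65 in run 1 and 8.44 to 10.97 in run 2, and for 6 leukocyte probes 8.89 to 11.20 and 8.64 to 12.74. For 3 endothelial probes it was 10.51 to 12.64 and 10.26 to 12.27, and for 5 fibroblast probes 12.71 to 15.70 and 11.77 to 15.82. In the suspected animals KRT18, an epithelial keratin, rose by 1.75, TEK, an endothelial receptor, rose by 1.64 and LCP1, a leukocyte actin bundler, fell by 1.16. In the Holstein controls EPCAM, an epithelial adhesion protein, rose by 2.90, and no other probe of these 3 lists was called in either comparison.

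Some fibroblast and adipocyte markers were called between the label groups. Of the 5 tested fibroblast probes, 4 were called higher and 0 lower in Holstein than in cross-breed controls, 1 higher and 2 lower in suspected than in cross-breed animals, and 4 lower in suspected than in Holstein animals. COL3A1, a fibrillar collagen, rose by 1.51 in the Holstein controls and fell by 1.77 in the suspected animals. COL1A1, another, fell by 2.35 in the suspected animals and differed by 0.92 in the Holstein controls. LUM, a matrix proteoglycan, rose by 2.57 in the Holstein controls. All 3 tested adipocyte probes were higher in the Holstein controls and 2 in the suspected animals. FABP4, a fatty acid carrier, well above background in 3 of 5 cross-breed controls, rose by 5.23 in the suspected animals (limma adjusted p = 2.61e-04) and 5.03 in the Holstein controls, and CIDEC, a lipid droplet protein, by 4.09 and 3.71. The summed log2 signal of the list was 5.77 to 7.79 in the cross-breed controls, 8.72 to 10.66 in the unknown animals of run 1, 9.44 to 14.05 in those of run 2, 10.18 to 11.37 in the suspected animals and 8.001 to 12.19 in the Holstein controls. The 2 erythroid probes, HBA and HBB, were both higher in the suspected animals, and their sum was 5.60 to 9.30 in run 1 and 7.14 to 11.31 in run 2. Unlike the 8 separating members, the sums of all these lists overlapped between the runs, and their part in the members' differences was not tested.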

How the data were processed

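Per the file headers, the authors read the arrays with Agilent Feature Extraction (versions 9.1.3.1, 9.5.1.1 and 9.5.3.1), which gives a background-corrected processed signal per spot, deposited as intensity on a linear scale. The authors' normalized values, also deposited as linear intensity, served as an alternative. Here log2 signals of the spots were normalized by fast cyclic loess (limma 3.58.1, R 4.3.3). This step held the gene spots, with those marked as outliers, and the spike-in spots, but no other control spots. Spots marked as outliers were then left out, and the remaining spots of a probe were averaged. Probes under 4 on at least 30 of 43 arrays were dropped, which left 16354. Groups were compared with limma moderated statistics and Benjamini-Hochberg adjustment over these probes, and calls were made at 2-fold or more with an adjusted p below 0.05. The code was tested on simulated data. Of the gene probes, 10098 were named by gene number, 3413 by accession, 297 by symbol, 88 by synonym and 7579 by the name in the file. The number of arrays limits the precision. Named genes were the members, the 8 probes most and 4 least correlated with their mean, any other probe of a member, and up to 4 called genes per list of partner genes. Marker genes, genes of other separating probes, neighbours of ASCC1, and GFRA2 and TRIP4 were named after their values were seen. Members and lists were chosen with earlier results of these data known. Other normalizations, background corrections, filters and left-out arrays were tried.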

Additional observations from a re-analysis of the deposited data

Results flagged for a closer look

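In the 4 suspected animals, ADGRA1 had 9.80 in S21, far from the 11.30 to 11.40 of the other 3. The 2 spots of the probe read 7.87 and 11.72 on that array. It was the only such value in 22 groups examined, each a probe in the 4 suspected animals or the 5 cross-breed controls. Chance gives such a value in about 1 of 20 groups, so that 1 of 22 is near the share from chance alone.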

How the results depend on the processing

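The number of members that separated the slide runs was 8 or 9 under all 11 other settings, with ASCC1 overlapping in all and ADGRA1 separating without S21, from the last spot alone and with normexp; leaving out arrays or spots was chosen after seeing the data. With normexp the difference between the runs was 3.68 for BAIAP2L2 (5.07), 3.68 for NRTN (4.30) and 2.88 for ADGRA1 (3.52). Separating probes numbered 34 without normalization, against 204. Calls between suspected and cross-breed animals (4597, of which 2347 higher and 2250 lower) became 9828 without normalization (1218 and 8610), 1378 with normexp and 7589 with no filter on dim probes. The split was 1987 and 3097 with quantile normalization, 3094 and 1382 with 75th percentile scaling, 2117 and 4199 with cyclic loess on every pair and 3239 and 1579 with a filter on signal above background. Between Holstein and cross-breed controls the 3361 calls (1777 and 1584) became 8613 without normalization (315 and 8298) and 1350 with normexp, with a split of 1288 and 2346 at 75th percentile scaling. Between suspected and Holstein animals the 2911 calls (1373 and 1538) became 5638 with cyclic loess on every pair (1608 and 4030), 487 with normexp and 5843 with no filter. The split there was 1348 and 2432 with quantile normalization, 2775 and 576 with 75th percentile scaling, 1952 and 802 without normalization, 2354 and 809 with the background filter and 1145 and 1791 in the authors' normalized values. The median change over all probes shifted most without normalization, to -1.07 in suspected and -1.04 in Holstein against cross-breed animals. Leaving out single arrays gave 4356 to 4654 calls for suspected against cross-breed animals, 3155 to 3302 for Holstein against cross-breed (cross-breed arrays left out) and 2581 to 2712 for suspected against Holstein (suspected arrays left out), and no Holstein array was left out. On shared slides the 0 calls became 9 in a fit of all 43 arrays with the slide as a random block. That fit changed both the arrays used and the treatment of the slide. The calls were 0 to 9 when single arrays were left out, 9 without animal 79. No member that was called against the cross-breed controls changed direction. Between suspected and Holstein animals, the differences of MOCS3 (0.06), IMPA2 (0.05) and ADGRA1 (-0.31) changed sign without S21. ADGRA1 on shared slides (-0.05) was 0.05 (0.0451) with 75th percentile scaling, 0.07 (0.0687) with normexp and -0.34 to 0.26 with single arrays left out. The other PHF12 probe gave, for suspected against cross-breed animals, -2.13 with cyclic loess on every pair (limma adjusted p = 3.53e-04), -0.11 without normalization and 1.08 with 75th percentile scaling (adjusted p = 0.0141). For Holstein against cross-breed animals it gave 0.0091 with cyclic loess on every pair and -1.46 without normalization (limma adjusted p = 0.0011), and for suspected against Holstein animals -2.14 with cyclic loess on every pair, 1.62 with 75th percentile scaling and 1.35 without normalization. Of the 8 most similar probes 5 stayed in the list with normexp. For all of these the cause was not tested. No paired analysis was possible because the replicate numbers only name samples. Unknown and cross-breed arrays of 1 scanner and software version were not compared, since none share both.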
